A study of Homo sapiens with 32 samples.

Results

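Translational efficiency (TE) is the number of ribosome-protected fragments of an mRNA set against the amount of that mRNA, and the results below describe how it changed in RPE-1 cells between 0 h and 10 h of serum stimulation. RPE-1 is an immortalised human cell line from retinal pigment epithelium, here of wild-type genotype, which stops dividing when serum is withdrawn and re-enters the cell cycle when serum returns. All groups had first been kept for 18 h without serum: the 0 h group was collected at that point and the 10 h group after 10 h with serum, with 4 biological replicates of each time in RNA-seq of rRNA-depleted total RNA and in Ribo-seq of ribosome footprints. These 16 libraries are part of 32 in the series, the others being 5 h and 15 h of serum. The TE change of a gene is its log2 change in footprints less its log2 change in RNA, with each assay scaled on its own. It was computed for the 8736 of 19023 genes that passed a filter on low counts in both assays, and a gene was called when its edgeR quasi-likelihood p, adjusted by Benjamini-Hochberg over those 8736 genes, was under 0.05. The design has no group that stayed in serum-free medium for a further 10 h, and an effect of serum cannot be told apart from one of time in culture.

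Cells without growth factors translate less, and the kinase complex mTORC1 is a main relay between serum, amino acids and the ribosome. Its best known mRNA targets begin with a cytosine followed by an unbroken run of pyrimidines, the 5′ terminal oligopyrimidine (TOP) motif, and encode ribosomal proteins, elongation factors and other parts of the translation apparatus. While mTORC1 is inactive, the cap-binding protein LARP1 and the 4E-BP proteins hold such mRNAs off ribosomes, and the mRNAs are stored rather than lost. A rise of footprints with no rise of RNA is the form that release from this control takes in paired RNA-seq and Ribo-seq data.

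The first bases of some of the genes named below are shown here because the TOP motif is defined by them. They were not picked by size of change alone, and how often the run occurs is given further below. Each line gives 30 bases of GRCh38, 10 before and 20 from the start listed in RefSeq on, 5′ to 3′ on the strand of the gene, and capitals mark the cytosine at the start and the pyrimidines that follow it without a break where there are at least 4 of them. The first 8 belong to ribosomal protein genes and other established TOP genes whose TE rose, the next 5 to genes outside those lists whose TE rose, and the last 5 have no such run at the listed start.
EEF2, chr19:3985444-3985473, minus strand: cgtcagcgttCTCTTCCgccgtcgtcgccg
EEF1A1, chr6:73521013-73521042, minus strand: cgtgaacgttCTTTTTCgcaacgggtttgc
RPS18, chr6:33272065-33272094, plus strand: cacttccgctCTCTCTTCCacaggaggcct
RPL13A, chr19:49487598-49487627, plus strand: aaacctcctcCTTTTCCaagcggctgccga
RPS6, chr9:19380217-19380246, minus strand: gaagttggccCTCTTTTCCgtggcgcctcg
RPLP0, chr12:120201092-120201121, minus strand: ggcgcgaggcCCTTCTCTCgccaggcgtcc
TPT1, chr13:45341164-45341193, minus strand: ctgagtcggcCTTTTCCgcccgctcccccc
RACK1, chr5:181243887-181243916, minus strand: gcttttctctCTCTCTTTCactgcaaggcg
SLC25A6, chrX:1392094-1392123, minus strand: gctgctccgtCCTTTCggtccaggcggcgg
QARS1, chr3:49104738-49104767, minus strand: gcctaagtttCTTTTagtttccggtgtctc
FBL, chr19:39846360-39846389, minus strand: cgcctgcgctCTTTTCCacgtgcgaaagcc
CDT1, chr16:88803779-88803808, plus strand: ccgcctcttcCTCCCTTCCTTCTTTCCTTg
MND1, chr4:153344678-153344707, plus strand: cctgtcccgcCCCTCTCCCCaagcgcgggc
EEF1G, chr11:62573872-62573901, minus strand: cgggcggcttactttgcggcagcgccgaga
VIM, chr10:17228231-17228260, plus strand: atcgtgatctgggaggcccacgtatggcgc
SKA3, chr13:21176533-21176562, minus strand: gccgagattcaaactagtggcgggaggctg
SAT1, chrX:23783163-23783192, plus strand: atgttcaaatgcgcagctcttagtcgcggg
FTL, chr19:48965299-48965328, plus strand: acgtcccctcgcagttcggcggtcccgcgg
The run is 7 bases long in EEF2, EEF1A1, RPL13A, TPT1 and FBL, 9 in RPS18, RPS6, RPLP0 and RACK1, 6 in SLC25A6, 5 in QARS1, 10 in MND1 and 19 in CDT1. EEF1G and VIM, which are usually counted among TOP mRNAs, have no such run at the start this annotation lists. RefSeq lists a start per transcript and not the start these cells used, so the letters describe the annotation. SLC25A6 and MND1 have 2 listed starts each, and their other start is not shown.

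The RNA libraries held between 632023 and 1107470 counts and the footprint libraries between 2851423 and 9604881, with the footprint libraries of 10 h (6307852 to 9604881) deeper than those of 0 h (2851423 to 5235948). The spread between replicates was larger in RNA, with a common biological coefficient of variation of 0.185 against 0.0547 in footprints, so the error of a TE change came mostly from the RNA: the median standard error was 0.247 for TE, 0.245 for RNA and 0.084 for footprints (log2). The TE fit gave each gene a single spread over both assays, with a common coefficient of 0.102, below that of RNA alone. The RNA part of a TE error can therefore be understated. For GLIS2 the error was 0.36 for TE and 0.37 for RNA. All 7 markers set for the line (among them KRT8, KRT18, VIM and CAV1) were detected, their summed RNA level running from 16100 to 17600 CPM (counts scaled to a common library size) at 0 h and from 14900 to 16700 at 10 h. Their summed footprints ran from 9520 to 9900 at 0 h and from 17400 to 18600 at 10 h, and VIM was the member whose TE rose (2.19 ± 0.15). Of 11 pigment epithelium differentiation markers in the table, the transcription factors MITF and OTX2 and the receptor MERTK were present (3094, 1270 and 439 counts over the 16 libraries), RPE65 and TYR had 2 counts each and DCT and TTR had 0. Of 9 blood cell markers, HBA1, HBA2, HBB and LYZ had 0 counts and the pan-leukocyte marker PTPRC 17, while the lysosomal protein gene CD68 had 5027. The summed footprints of the blood list ran from 77.8 to 96.9 CPM at 0 h and from 92.9 to 107 CPM at 10 h, and their part in the results was not tested.

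Of the 8736 genes, 760 (8.7%) changed in TE, 672 (7.69%) higher at 10 h and 88 (1.01%) lower. The median change over all genes was 0.06 (log2, quartiles -0.16 and 0.32). Changes of at least 2-fold were called higher in 327 genes and lower in 32, and at least 4-fold higher in 96 genes and lower in 0, while the smallest called change was 0.36. Of the 96 genes with 4-fold rises, 69 were in the lists of ribosomal proteins and other TOP mRNAs fixed for this comparison and 27 were outside them. By contrast, RNA changed in 3929 of 8775 genes (44.8%, 2046 higher and 1883 lower) and footprints in 8597 of 10959 (78.4%, 4322 higher and 4275 lower). The split of TE calls rests on the scaling: with library totals in place of TMM factors the median of all genes moved to -0.13 and the calls were 386 higher and 306 lower. Without replicate 2 of RNA at 10 h the calls were 572 higher and 144 lower. Since the data hold no spike-in, each TE change is relative to the other genes.

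**Figure D1:**
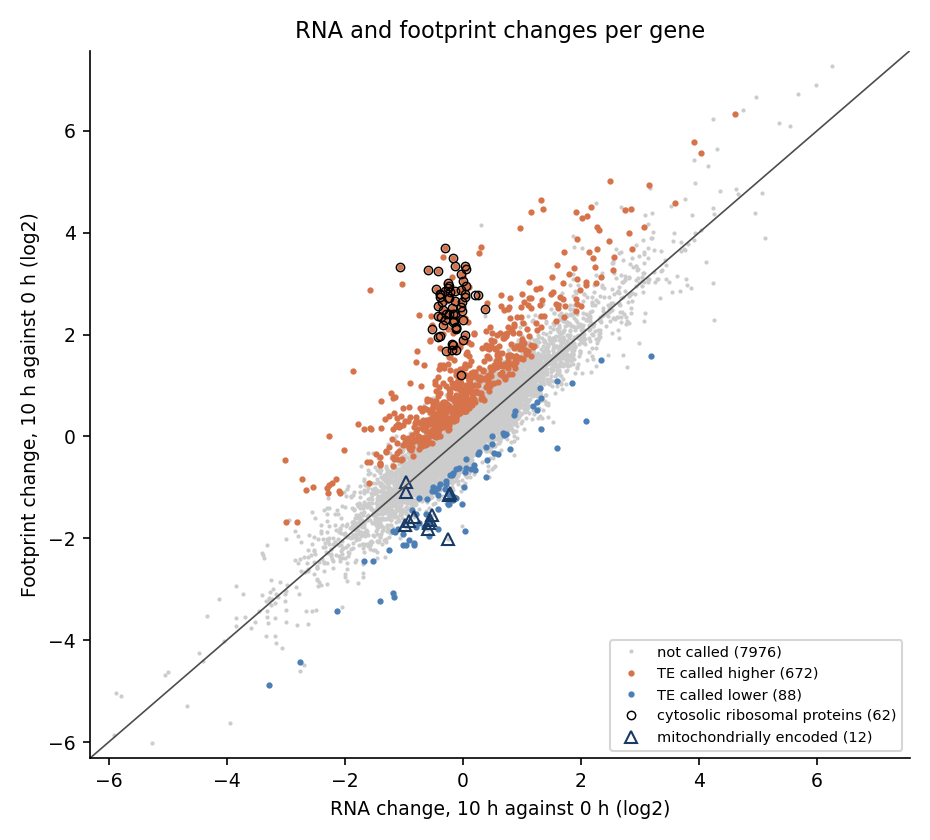
RNA change (x axis, log2) against footprint change (y axis, log2) from 0 h to 10 h for each of the 8736 genes, with TE calls in colour and the diagonal marking equal change. The 62 ribosomal protein genes form a column near an RNA change of 0, with a median footprint change of 2.59, and the 12 mitochondrially encoded mRNAs lie at or below the diagonal on the left, apart from 1 just above it.

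Ribosomal proteins rose in TE nearly as a set. Of 79 genes listed, 71 were in the table and 62 were tested, and 61 of these 62 were called higher and 0 lower, against 7.69% of all genes. Their median TE change was 2.72, made of a median footprint change of 2.59 and a median RNA change of -0.18. Footprints rose in all 62, against 39.4% of all genes, while RNA rose in 0 and fell in 12, against 23.3% and 21.5%. The single changes ran from 1.25 (FAU) to 4.02 (RPS18), apart from RPL21, which had 3 footprint counts over all 0 h libraries and 52 over those of 10 h and is given no fold. Before serum the median TE level of these genes, as log2 of footprint CPM over RNA CPM, was -4.22, and at 10 h it was -1.33, against -0.33 and -0.23 for all genes tested. That level is a ratio for the same gene, so its length cancels. Reads shared between copies of a gene, taken up below, need not cancel in it, and their part in the level was not tested.

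RPS6, a component of the small subunit and itself the classic substrate of S6 kinase, shows the pattern. Its RNA stood at 3816, 2726, 2538 and 3330 CPM in replicates 1 to 4 at 0 h and at 3857, 2648, 3269 and 3163 CPM at 10 h, so the RNA values of the groups overlapped. Footprints stood at 106, 120, 122 and 101 CPM at 0 h and at 1093, 1037, 1134 and 1101 CPM at 10 h, with no overlap. TE rose by 3.22 ± 0.18 on the log2 scale (9.3-fold, adjusted p = 5.43e-17).

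RPLP0, which anchors the stalk of the large subunit, had RNA at 1859, 1686, 1653 and 1779 CPM at 0 h and at 1242, 1405, 1478 and 1230 CPM at 10 h, lower in every library. Its footprints went the other way, from 28.7, 27.4, 26.8 and 21.8 CPM to 171, 158, 180 and 178 CPM, and TE rose by 3.11 ± 0.13 (8.61-fold). For RPS18, a protein of the small subunit head, footprints were 3.55, 6.59, 8.47 and 9.26 CPM at 0 h and 96.3, 93.4, 99.3 and 94.4 CPM at 10 h. Its RNA, at 945, 591, 541 and 662 CPM and then 631, 492, 581 and 517 CPM, overlapped between the times, and TE rose by 4.02 ± 0.23. Leaving out subunit proteins whose CPM averaged under 10 in either assay, the next largest rises were RPL13A (3.86 ± 0.19), RPL37A (3.66 ± 0.16), RPS2 (3.66 ± 0.16), RPL9 (3.47 ± 0.25), RPL28 (3.34 ± 0.35) and RPL26 (3.31 ± 0.34).

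RPS16 was the ribosomal protein gene that missed the threshold. Its RNA level scattered widely, at 33.9, 122, 513 and 59.8 CPM at 0 h and 29.7, 474, 62.4 and 251 CPM at 10 h, whereas its footprints were 63.3, 64.8, 63.9 and 53.1 CPM and then 415, 396, 450 and 408 CPM. The TE change of RPS16 was 2.53 ± 0.95 (adjusted p = 0.111), as large as that of its group with an error several times larger. Ribosomal protein genes have many processed pseudogenes, and the sources used here do not give how the authors assigned reads shared between copies. Such reads could move the level of each of these genes in either assay, and their part in the changes was not tested.

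Elongation factors included the largest rise named. EEF2, the translocase that moves the ribosome along the mRNA, had RNA at 8736, 10588, 10340 and 9191 CPM at 0 h and at 2148, 4682, 3094 and 3148 CPM at 10 h. Its footprints were 615, 658, 660 and 513 CPM at 0 h and 4465, 4227, 4534 and 4627 CPM at 10 h. RNA and footprints of EEF2 thus moved apart with no overlap of groups in either assay, RNA falling by 1.57 ± 0.21 and footprints rising by 2.87 ± 0.07 on the log2 scale. TE rose by 4.44 ± 0.24 (21.7-fold, adjusted p = 2.54e-16).

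EEF1A1, which delivers aminoacyl-tRNA, kept overlapping RNA levels (2664, 1648, 1416 and 1822 CPM, then 1813, 1173, 1705 and 1474 CPM) while its footprints went from 13.3, 10.2, 8.81 and 13.3 CPM to 91.8, 88.2, 87.3 and 90.8 CPM, a TE rise of 3.27 ± 0.24. EEF1G, a subunit of the exchange factor that recharges EEF1A1, went from 10.7, 11.7, 14.4 and 10.7 CPM of footprints to 142, 132, 138 and 144 CPM. Its RNA was 1354, 1132, 1162 and 1280 CPM and then 895, 948, 1069 and 975 CPM, and TE rose by 3.88 ± 0.14. EEF1B2, another subunit of that factor, chosen after its values were seen, had footprints of 4.44, 5.74, 6.61 and 5.52 CPM before and 42.6, 42.1, 46.2 and 44.9 CPM after. Both exchange factor subunits therefore had far more footprints at 10 h in every replicate, and EEF1B2 RNA (132, 122, 107 and 143 CPM, then 156, 117, 150 and 123 CPM) overlapped.

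The TOP mRNAs that encode no ribosomal protein numbered 35 tested, of which 33 rose in TE and 0 fell, against 7.69% and 1.01% of all genes. Their median was 1.87 (range 0.00 to 4.44). The members not called were CCNI, a cyclin-like gene (0.34 ± 0.18), and LARP1, the repressor of TOP mRNAs (0.00 ± 0.36). RNA of this list was called higher in 3 and lower in 13, and footprints were called higher in 33 and lower in 2. Over all genes RNA was called higher in 23.3% and lower in 21.5%, and footprints in 39.4% and 39.0%. TPT1, a translationally controlled tumour protein, had RNA of 2269, 1815, 1561 and 2166 CPM and then 2372, 1649, 2075 and 1738 CPM, with footprints of 92.3, 96.9, 94.2 and 80.7 CPM and then 810, 785, 832 and 770 CPM. Its RNA change was 0.00 ± 0.14 and its TE change 3.13 ± 0.16, so the whole of the difference lay in footprints. PABPC1, the poly(A)-binding protein, rose by 3.11 ± 0.25, the initiation helicase cofactor EIF4B by 2.45 ± 0.17, the ribosome-bound scaffold RACK1 by 2.69 ± 0.13, and the eIF3 subunits EIF3F and EIF3L by 2.44 ± 0.12 and 2.34 ± 0.11. VIM, the intermediate filament protein vimentin, rose by 2.19 ± 0.15.

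Together the ribosomal protein genes held 6.6% ± 0.757 of RNA counts at 0 h and 5.46% ± 0.294 at 10 h (SD, n = 4), and 0.492% ± 0.0212 and 2.23% ± 0.0713 of footprint counts. For the other TOP mRNAs the shares were 4.13% ± 0.158 and 2.71% ± 0.125 of RNA and 0.944% ± 0.0512 and 2.65% ± 0.071 of footprints. Their share of RNA was thus lower and their share of footprints higher at 10 h, with no overlap of libraries in any of these 4 pairs.

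**Figure D2:**
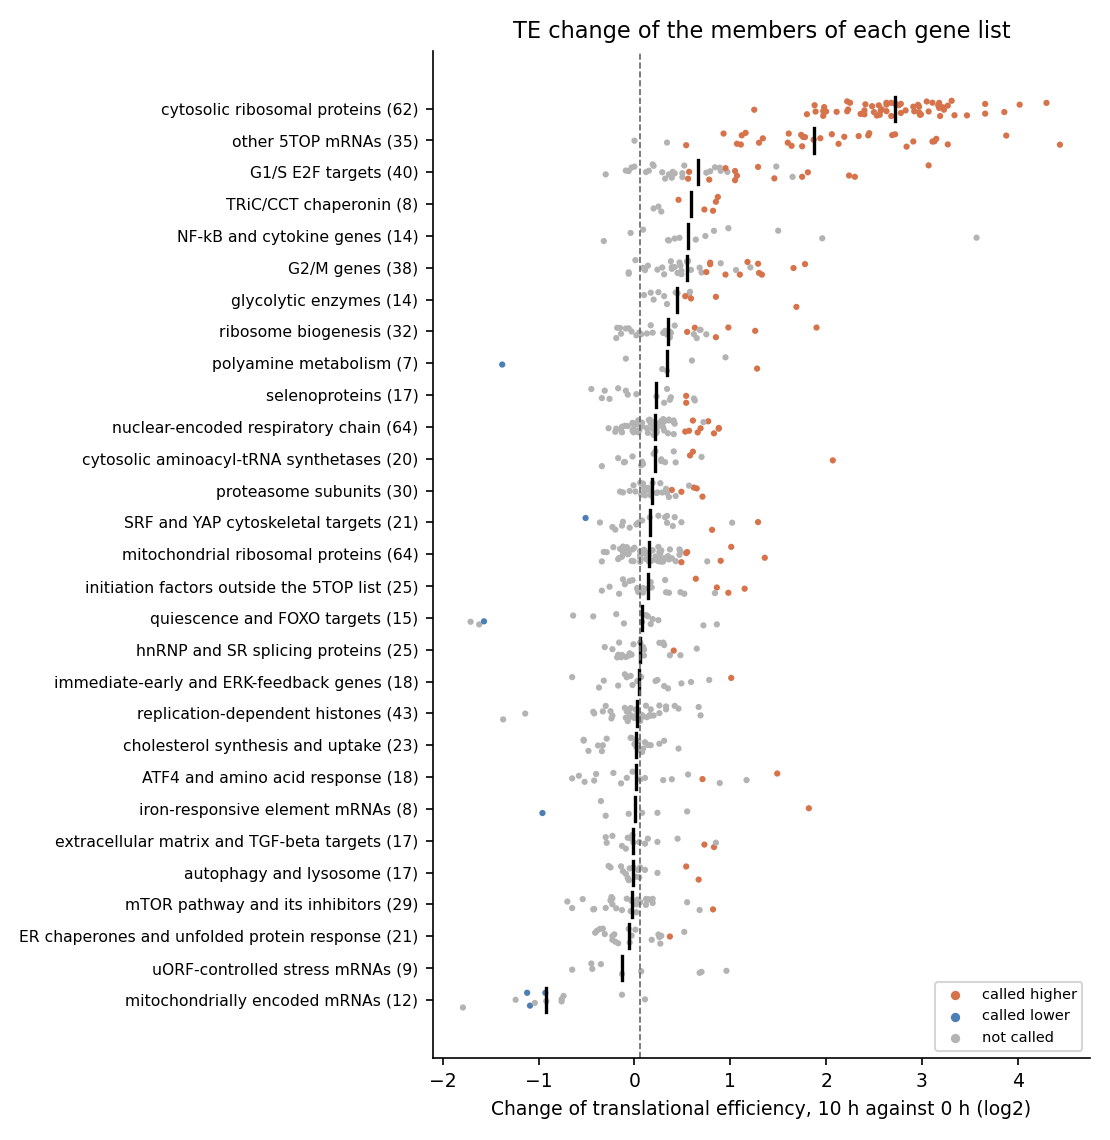
TE change (x axis, log2) of each tested member of the gene lists, with the number tested in parentheses, calls in colour, a black bar at the median of the list and a dashed line at the median of all genes (0.06). The rightmost ribosomal protein is RPL21, which had 3 footprint counts at 0 h. Ribosomal proteins (median 2.72) and other TOP mRNAs (1.87) stand to the right, and mitochondrially encoded mRNAs (-0.93) to the left.

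Beyond those lists, translation machinery moved much less in TE, and several of its parts rose in RNA instead. Of 25 initiation factors not counted as TOP mRNAs, 4 rose in TE (EIF4A1, the cap-complex helicase, 1.15 ± 0.11; EIF1 0.98 ± 0.25; EIF1B 0.86 ± 0.19; EIF3I 0.64 ± 0.11) and 0 fell. Over all genes tested, 7.69% rose in TE and 1.01% fell. The list median was 0.14, or -0.06 with library totals. Ribosome biogenesis genes rose in RNA in 29 of 32, against 23.3% of all genes, with a median of 1.73, and 6 of the 32 rose in TE (median 0.34). FBL, the methyltransferase of box C/D particles, was the exception in form, with a TE change of 1.90 ± 0.17 and an RNA change of -0.16 ± 0.16. Among the others called, PES1 rose by 0.85 ± 0.16 and NOP56 by 0.55 ± 0.12, both nucleolar assembly factors. BOP1, a partner of PES1 (0.98 ± 0.27), lost its call without replicate 3 or 4 of RNA at 0 h or replicate 1 of RNA at 10 h (adjusted p 0.0528 to 0.0787).

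Among the 20 cytosolic aminoacyl-tRNA synthetases, 3 rose in TE, against 7.69% of all genes. QARS1, which charges glutamine tRNA, rose by 2.07 ± 0.18, with RNA lower by 10 h (457 ± 78.3 CPM, then 196 ± 42.0 CPM, SD, n = 4) and footprints higher (129 ± 8.95 CPM, then 232 ± 4.68 CPM). KARS1 rose by 0.58 ± 0.13 and FARSB by 0.61 ± 0.17, and FARSB lost its call in 4 of the 16 fits that each left out 1 library (adjusted p 0.0544 to 0.0697). Of 64 mitochondrial ribosomal proteins, 6 rose (MRPS27 1.36 ± 0.12; MRPL45 1.01 ± 0.21), a share near the 7.69% of all genes, and the median of 0.15 became -0.04 with library totals.

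SLC25A6, an ADP/ATP carrier of the mitochondrial inner membrane, had the second largest rise named although it is no part of the translation apparatus. Its RNA was 460, 608, 591 and 480 CPM at 0 h and 221, 334, 306 and 192 CPM at 10 h, and its footprints were 62.1, 62.5, 67.2 and 52.1 CPM and then 467, 486, 504 and 490 CPM. Neither assay overlapped between the times, and TE rose by 4.03 ± 0.20 (16.3-fold). ADAMTS6, a secreted metalloprotease, rose by 3.32 ± 0.19 with an RNA change of 0.27 ± 0.14 that was not called.

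Most G1/S genes rose in RNA and in footprints, and part of them in TE as well. Of 42 G1/S targets of E2F in the table, 40 were tested. RNA rose in 38 (against 23.3% of all genes), footprints in all 40 (39.4%) and TE in 14 (7.69%), with 0 lower in TE. The medians were 2.60 for RNA, 3.37 for footprints and 0.66 for TE. CDT1, which loads the replicative helicase at origins, had RNA of 18.2, 15.9, 23.1 and 10.5 CPM at 0 h and 30.7, 61.5, 35.9 and 45 CPM at 10 h. Its footprints went from 3.55, 6.16, 4.74 and 5.36 CPM to 106, 107, 117 and 115 CPM. Both assays were higher at 10 h with no overlap, footprints by far more, and TE rose by 3.07 ± 0.37 (8.41-fold).

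RRM2, the inducible subunit of ribonucleotide reductase, went from 12.1, 9.53, 7.22 and 13.5 CPM of RNA to 53.3, 51.9, 37.5 and 29.7 CPM, and from 8.28, 5.1, 6.61 and 4.87 CPM of footprints to 114, 129, 116 and 109 CPM, a TE rise of 2.24 ± 0.40. The helicase subunit MCM7 rose by 1.29 ± 0.18 and the dUTPase DUT by 0.78 ± 0.15, the latter with an RNA change of 0.05 ± 0.15. Not every S-phase gene shared this: the TE changes of CDC6 (0.52 ± 0.38), PCNA (0.15 ± 0.21) and CCNE1 (-0.30 ± 0.34) were not called, although their RNA rose by 5.54 ± 0.26, 3.05 ± 0.20 and 2.62 ± 0.25.

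DNA2, a nuclease and helicase of DNA replication and repair, had RNA of 83.6, 62.5, 59.2 and 98.7 CPM and then 186, 97.1, 162 and 151 CPM, overlapping at 1 library of each time. Its footprints were 7.1, 4.89, 4.74 and 4.87 CPM and then 89.8, 95.8, 88.0 and 84.5 CPM, and TE rose by 3.11 ± 0.25. SKA3, a component of the outer kinetochore, had RNA of 21.8, 12.7, 26 and 26.9 CPM and then 42.0, 24, 18.7 and 20.7 CPM, which overlapped, and footprints of 4.14, 2.76, 2.2 and 3.57 CPM and then 40.5, 45.9, 39.5 and 36.8 CPM. The TE rise of SKA3 was 3.37 ± 0.35. MND1, known from meiotic recombination (3.28 ± 0.45), and HASPIN, the histone H3 kinase of mitosis (3.30 ± 0.43), were in the same range, and HASPIN lies within the gene ITGAE, so that without a stated strand setting their reads cannot be told apart.

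Among 38 G2/M genes, 11 rose in TE and 0 fell (median 0.55), against 7.69% and 1.01% of all genes. RNA of the 38 rose in 18 and fell in 6, against 23.3% and 21.5% of all genes, and footprints rose in 29 and fell in 6, against 39.4% and 39.0%. UBE2C, the ubiquitin-conjugating enzyme of the anaphase-promoting complex, rose by 1.78 ± 0.25, the proliferation marker MKI67 by 1.66 ± 0.33 and the mitotic kinase AURKA by 1.29 ± 0.22. The mitotic cyclin CCNB2 rose by 1.10 ± 0.21 while its RNA fell by 1.62 ± 0.19 and its footprints fell by 0.51 ± 0.08 on the log2 scale, so here the RNA was reduced more than the footprints. Replication-dependent histones, by comparison, rose in RNA in 40 of 43 and in footprints in 41, and in TE in 0 of 43, with a median of 0.03.

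**Figure D3:**
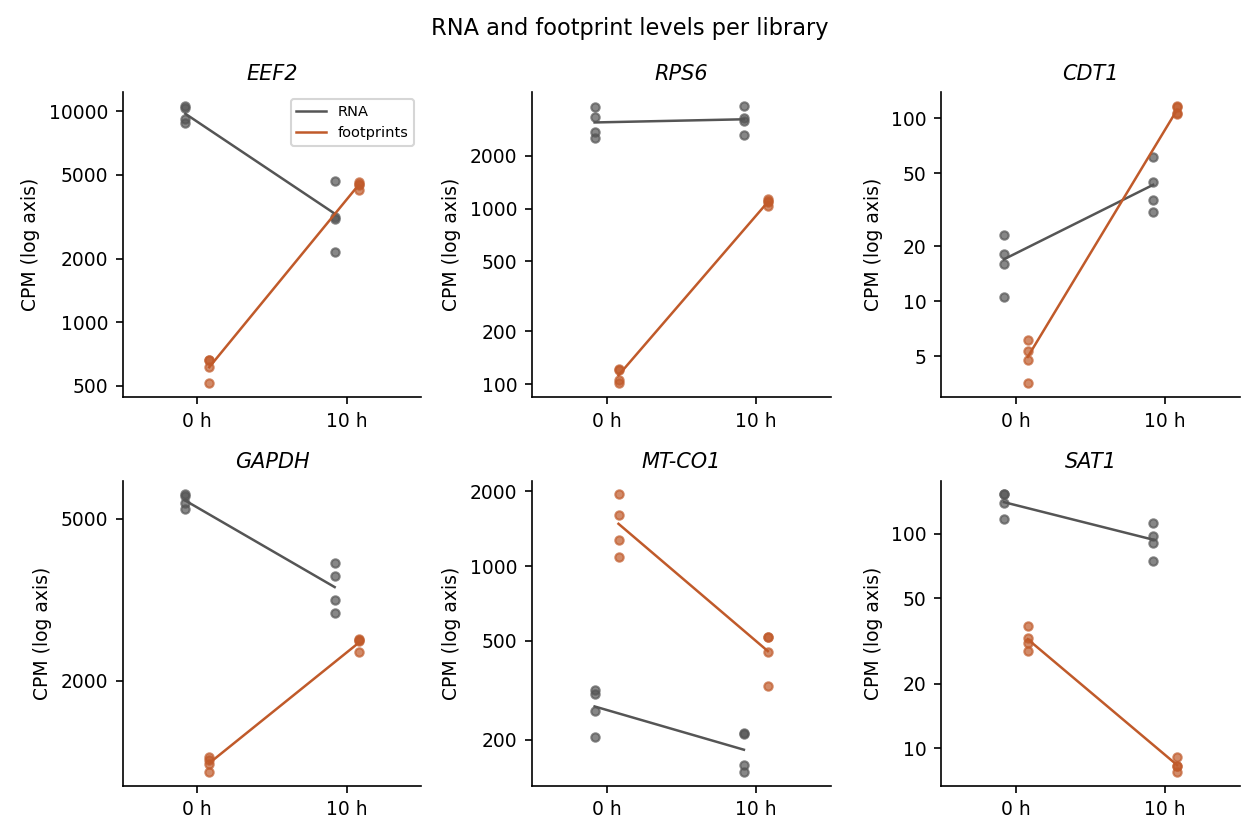
RNA (grey) and footprint (orange) levels in CPM on a log axis at 0 h and 10 h, a point per library (n = 4 per group) and a line joining the group means, for 6 genes. EEF2, RPS6, CDT1 and GAPDH have higher footprints at 10 h in every library, and MT-CO1 and SAT1 lower ones.

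Several sets of housekeeping genes held a smaller rise. GAPDH, the glycolytic enzyme often used as a reference, had RNA of 5278, 5692, 5740 and 5456 CPM and then 2928, 3614, 3884 and 3160 CPM, with footprints of 1276, 1251, 1295 and 1194 CPM and then 2533, 2352, 2519 and 2501 CPM. Neither overlapped, in opposite directions, and TE rose by 1.69 ± 0.12 (3.22-fold), whereas the TE change of ACTB, cytoplasmic actin, was 0.04 ± 0.27. Of 14 glycolytic enzymes 4 rose in TE (median 0.44), against 7.69% of all genes. Besides GAPDH these were LDHB (0.85 ± 0.19), PFKM (0.59 ± 0.12) and LDHA (0.53 ± 0.13). LDHA was not called with library totals (adjusted p = 0.122). Of the 8 subunits of the TRiC chaperonin, which folds actin and tubulin, 5 rose, with TCP1 at 0.85 ± 0.17, CCT4 at 0.87 ± 0.13 and CCT6A at 0.73 ± 0.16 (median 0.60, or 0.40 with library totals).

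Nuclear genes of the respiratory chain rose in TE in 9 of 64 (median 0.21), among them COX5A (0.88 ± 0.17), ATP5ME (0.88 ± 0.21), NDUFB11 (0.77 ± 0.13) and ATP5MG (0.69 ± 0.15), and proteasome subunits in 5 of 30 (median 0.18, or -0.02 with library totals), among them PSMB5 (0.71 ± 0.16), PSMD4 (0.65 ± 0.13) and PSMB7 (0.62 ± 0.12). These shares stand beside 7.69% for all genes. The serine pathway enzyme SHMT2 rose by 1.49 ± 0.16, with RNA lower by 0.47 and footprints higher by 1.02 on the log2 scale.

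The mRNAs encoded by mitochondrial DNA, which are translated by mitochondrial ribosomes inside the organelle, went the other way. The table holds 13, of which 12 passed the filter. Footprints fell in all 12, against 39.0% of all genes, and RNA in 7, against 21.5%. TE fell in 3 and rose in 0, against 1.01% and 7.69% of all genes. The medians were -0.93 for TE, -0.58 for RNA and -1.62 for footprints, and the median TE was lower under every scaling run (-1.12 with library totals). MT-CO1, a catalytic subunit of cytochrome c oxidase, had footprints of 1941, 1606, 1092 and 1274 CPM at 0 h and 519, 521, 331 and 450 CPM at 10 h, and RNA of 262, 317, 306 and 206 CPM and then 213, 211, 158 and 149 CPM. Footprints of the groups did not overlap, RNA overlapped in a narrow band, and TE fell by 1.12 ± 0.31 (adjusted p = 0.0166).

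MT-CO3, of the same complex, had footprints of 606, 608, 401 and 420 CPM and then 252, 254, 175 and 230 CPM, with overlapping RNA (224, 242, 206 and 197 CPM, then 193, 223, 145 and 179 CPM), and TE fell by 0.93 ± 0.24. MT-CO2 fell by 1.09 ± 0.33, a call lost without replicate 3 or 4 of RNA at 0 h, replicate 1 or 2 of RNA at 10 h, replicate 1 or 2 of footprints at 0 h or replicate 3 of footprints at 10 h (adjusted p 0.0511 to 0.0993). The 3 calls depend on the tool, since limma voom called 0 of the 12 and DESeq2 called 5. The 13 genes held 0.722% ± 0.187 of footprint counts at 0 h and 0.201% ± 0.037 at 10 h (SD, n = 4), and 0.0964% ± 0.0104 and 0.0626% ± 0.00792 of RNA counts. For these shares of counts, fewer mitochondria per cell and less RNA or fewer ribosomes in each cannot be told apart in such bulk samples. Footprints of mitochondrial and cytosolic ribosomes were scaled together, so the TE fall is relative to the other genes. Its cause was not tested.

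Of the 88 genes called lower, none fell by as much as 4-fold. CDKN2C, an inhibitor of the G1 kinases CDK4 and CDK6, fell most among those named: its RNA was 59.4, 36.0, 34.7 and 40.4 CPM and then 15.4, 24, 17.2 and 18.9 CPM, and its footprints 17.2, 17.4, 19.1 and 21 CPM and then 1.9, 1.91, 2.05 and 2.65 CPM. Both were lower at 10 h without overlap, footprints more so, and TE fell by 1.99 ± 0.31 (3.96-fold lower). GLIS2, a zinc finger transcription factor, had overlapping RNA (4.85, 11.7, 21.7 and 13.5 CPM, then 9.22, 16.3, 9.37 and 15.3 CPM) and footprints of 30.2, 28.5, 32.9 and 24.2 CPM and then 7.46, 8.83, 6.7 and 9.28 CPM. Its TE fell by 1.90 ± 0.36, with an RNA change of 0.03 ± 0.37. MMP15, a membrane-bound metalloprotease, fell by 1.87 ± 0.43.

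SAT1, the acetyltransferase that starts polyamine breakdown, had RNA of 153, 153, 118 and 139 CPM and then 91.1, 98.0, 74.9 and 112 CPM, and footprints of 30.8, 32.7, 37.1 and 28.3 CPM and then 9.1, 7.75, 8.22 and 8.28 CPM. Neither overlapped, and TE fell by 1.38 ± 0.16 (2.61-fold lower, adjusted p = 2.34e-08). SRM, which makes spermidine, moved the other way (1.28 ± 0.40), a call lost in 6 of the 16 fits that each left out 1 library (adjusted p 0.0509 to 0.165). For ODC1, the first enzyme of polyamine synthesis, RNA went from 853, 726, 699 and 756 CPM to 4016, 3715, 4391 and 4460 CPM and footprints from 123, 110, 118 and 114 CPM to 612, 545, 589 and 646 CPM. RNA and footprints of ODC1 rose alike, and the TE change was -0.09 ± 0.13. AMD1, which supplies the aminopropyl donor, had a TE change of 0.95 ± 0.32 (adjusted p = 0.0547).

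FTL, the ferritin light chain, whose mRNA carries an iron-responsive element, had RNA of 618, 658, 661 and 595 CPM and then 319, 402, 495 and 306 CPM, and footprints of 61.2, 56.3, 61.8 and 40.4 CPM and then 18.8, 15.3, 14.4 and 18.7 CPM. All 10 h values lay below those of 0 h, and TE fell by 0.96 ± 0.20. Among the other 7 tested mRNAs of that list, CDC14A rose by 1.82 ± 0.58, a call lost in 10 of the 16 fits that each left out 1 library (adjusted p 0.053 to 0.161), and the transferrin receptor TFRC was at 0.24 ± 0.19.

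KLHL24, one of the genes raised in quiescent cells, had RNA of 109, 118, 69.3 and 124 CPM at 0 h and 17.4, 5.77, 12.5 and 8.11 CPM at 10 h, and footprints of 124, 134, 128 and 127 CPM and then 5.82, 4.53, 3.13 and 3.81 CPM. Both fell, and TE fell by 1.57 ± 0.44, a call lost without replicate 1 of RNA at 10 h (-1.27, adjusted p = 0.148). It was the only gene called in TE among 15 tested quiescence and FOXO targets, against 7.69% higher and 1.01% lower of all genes. RNA fell in 13 of the 15 and footprints in 15, against 21.5% and 39.0% of all genes. The median TE change of that list was 0.08. TXNIP, another member, was at 0.19 ± 0.16. Among the other falls that kept their call without each library in turn were FAM229B (-1.30 ± 0.26), ITPR1, a calcium channel of the endoplasmic reticulum (-1.15 ± 0.26), and PRXL2A (-0.90 ± 0.14).

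RNF7, a RING subunit of cullin ubiquitin ligases, was the only one of the 8736 genes with RNA called higher and footprints called lower. Its RNA was 66.6, 62.5, 47.6 and 52.3 CPM and then 77.8, 79.8, 78.1 and 67.6 CPM, and its footprints 12.7, 16.1, 13.5 and 16.9 CPM and then 6.45, 10.4, 9.51 and 7.62 CPM. No values overlapped in either assay, and TE fell by 1.18 ± 0.19. In 11 genes a lower TE came with a rise in both assays, smaller in footprints. For ZMYND19 RNA went from 19.4, 20.1, 21.7 and 14.9 CPM to 94.2, 110, 99.9 and 87.4 CPM and footprints from 14.2, 12.7, 9.82 and 8.93 CPM to 29.5, 32.3, 29.3 and 33.6 CPM, a TE fall of 0.86 ± 0.22. MAP2K1, the kinase upstream of ERK, went from 23, 28.6, 33.2 and 17.9 CPM of RNA to 79.9, 104, 98.3 and 89.2 CPM and from 37.9, 46.3, 45.2 and 50 CPM of footprints to 93.9, 92.9, 96.6 and 91.5 CPM (-0.79 ± 0.22), and its call was lost without replicate 1 or 4 of RNA at 0 h (adjusted p 0.0506 and 0.0728).

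Across the 672 genes with higher TE, footprints rose with no RNA call in 324 (48.2%), rose with RNA also rising in 163 (24.3%) and rose against falling RNA in 81 (12.1%). In 60 (8.93%) RNA fell while footprints were not called, in 42 (6.25%) both fell, and in 2 (0.298%) neither was called. Examples of RNA falling with footprints that were not called are IGBP1, a regulator of protein phosphatase 2A (TE 1.55 ± 0.15, RNA 244 ± 31.1 CPM and then 93.8 ± 11.9 CPM, footprints 41.2 ± 2.58 CPM and then 45.9 ± 3.38 CPM), ECSIT (1.83 ± 0.25) and VPS51 (1.34 ± 0.18). TKT, the pentose phosphate transketolase and a TOP mRNA, belongs to those with both lower: RNA was 3845 ± 247 CPM and then 610 ± 136 CPM and footprints 1373 ± 46.3 CPM and then 664 ± 12 CPM, a TE change of 1.61 ± 0.18. Of the 88 genes with lower TE, footprints fell with no RNA call in 38 (43.2%) and with falling RNA in 30 (34.1%), both rose in 11 (12.5%), RNA rose with no footprint call in 8 (9.09%), and RNF7 is the remaining gene. Over all genes footprints were called higher in 39.4% and lower in 39.0%, and RNA in 23.3% and 21.5%. These classes follow in part from choosing genes by TE, which is footprints less RNA. A missing RNA call does not show unchanged RNA, since the median error was 0.245 for RNA and 0.084 for footprints.

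Other pathways changed strongly in both assays with little in TE. Cholesterol synthesis and uptake genes fell in RNA in 21 of 23, against 21.5% of all genes, and in footprints in 23, against 39.0%. In TE 0 of the 23 were called in either direction (median 0.02), against 7.69% higher and 1.01% lower of all genes. At those shares a list of this size would hold few calls. For CCND1, the cyclin of early G1 (RNA 121, 158, 225 and 155 CPM, then 854, 1580, 1155 and 1236 CPM; footprints 290, 254, 252 and 201 CPM, then 1553, 1496, 1541 and 1665 CPM), the TE change was -0.23 ± 0.21 and not called. For the growth regulator MYC (RNA 20.6, 24.4, 15.9 and 13.5 CPM, then 84, 114, 93.7 and 92.8 CPM; footprints 38.5, 30.4, 36.8 and 37.5 CPM, then 176, 158, 175 and 167 CPM) it was -0.10 ± 0.23. Both genes rose several-fold in each assay with no overlap. The cell-cycle inhibitor CDKN1A was at 0.11 ± 0.20.

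Among 9 tested mRNAs controlled by upstream reading frames in stress, 0 were called, against 7.69% higher and 1.01% lower of all genes. Their median was -0.13. ATF4, the central factor of the amino acid response, had RNA of 122, 115, 107 and 114 CPM and then 65.5, 56.7, 87.4 and 66.7 CPM and footprints over its coding region of 3.25, 1.91, 1.52 and 1.62 CPM and then 2.66, 2.03, 1.84 and 2.49 CPM. RNA was lower without overlap and footprints overlapped, and its TE change of 0.96 ± 0.33 missed the threshold (adjusted p = 0.0663), as did that of PPP1R15A, which directs dephosphorylation of eIF2 (0.68 ± 0.25, adjusted p = 0.0882). Of 29 genes of the mTOR pathway itself, 1 rose in TE, the RNA-binding protein LARP4 (0.82 ± 0.18), and the median was -0.03. DDIT4, an inhibitor of mTORC1, fell in RNA by 5.87 ± 0.36 with a TE change of 0.89 ± 0.51. The remaining lists held 0 to 2 calls in each direction, beside 7.69% higher and 1.01% lower of all genes: 2 higher of 18 for ATF4 targets, 1 of 21 for endoplasmic reticulum chaperones, 2 of 17 for extracellular matrix, 2 higher and 1 lower of 21 for cytoskeletal SRF and YAP targets, 1 of 18 for immediate-early genes, 0 of 14 for NF-kB genes, 2 of 17 for autophagy and lysosome, 2 of 17 for selenoproteins and 1 of 25 for splicing proteins. Of these, IER3 (1.01 ± 0.27) lost its call without replicate 4 of RNA at 10 h (0.84, adjusted p = 0.0631), and the calls of CALD1 (-0.51 ± 0.16), CANX (0.37 ± 0.11), SRSF3 (0.41 ± 0.13), GPX1 (0.54 ± 0.18), SELENOH (0.54 ± 0.18), GLA (0.54 ± 0.17), LOX (0.83 ± 0.26) and MTHFD2 (0.71 ± 0.22) were each lost in 9 to 13 of the 16 fits that left out 1 library. Those that stayed called in each of these fits were ACTG1, cytoplasmic actin (1.29 ± 0.26), TAGLN, transgelin (0.81 ± 0.15), LAMB1, a laminin chain (0.73 ± 0.17), NPC2, a lysosomal cholesterol carrier (0.67 ± 0.13), and SHMT2.

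Some calls given above also depend on a choice of processing. With library totals in place of TMM factors, BOP1, FARSB, KARS1, NOP56, LAMB1, LDHA, SRM and CDC14A were not called (adjusted p 0.0544 to 0.13), and with limma voom neither were KLHL24, MAP2K1, ZMYND19 and the mitochondrially encoded MT-CO1, MT-CO2 and MT-CO3 (adjusted p 0.0518 to 0.379). In the RefSeq annotation RPL28, MCM7, BOP1, MAP2K1, CCT4, TCP1, PFKM, NDUFB11, SHMT2, TAGLN, NPC2, AMD1, SAT1 and SLC25A6 overlap another coding gene, and without a stated strand setting reads of the overlapping parts cannot be told apart.

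The 5 h and 15 h groups share the 0 h libraries with this comparison, so their values are set side by side only. For ribosomal proteins the median TE change was 2.56 at 5 h, 2.72 at 10 h and 2.83 at 15 h, and for the other TOP mRNAs 1.72, 1.87 and 1.90. EEF2 stood at 4.45, 4.44 and 4.40, RPS6 at 2.90, 3.22 and 3.10, and SAT1 at -1.81, -1.38 and -1.40. For G1/S targets of E2F the medians were 0.48, 0.66 and 0.57, with CDT1 at 3.87, 3.07 and 3.55, RRM2 at 1.89, 2.24 and 2.05 and MCM7 at 0.85, 1.29 and 1.24, whereas DUT stood at -0.18, 0.78 and 0.77. The G2/M median was -0.20, 0.55 and 0.48. Within that list UBE2C was at 0.93, 1.78 and 1.69, AURKA at 0.06, 1.29 and 1.37 and MKI67 at -0.16, 1.66 and 1.74. Outside both lists, SKA3 stood at -0.44, 3.37 and 3.51 and DNA2 at 0.94, 3.11 and 3.14. CDKN2C was at 0.13, -1.99 and -1.57. For mitochondrially encoded mRNAs the medians were -0.61, -0.93 and -1.30. The median of all genes tested was -0.01, 0.06 and 0.10 at the 3 times.

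The first bases of the gene could be set beside the TE change in 7261 of the 8736 genes, those with a start in the RefSeq table. A C followed by at least 4 bases that are each C or T, beginning at a listed start on the strand of the gene, was found in 567 of them (7.81%). Genes with several listed starts were scored by the longest run among these. Of these 567, TE rose in 182 (32.1%) and fell in 3, with a median of 0.36, and of the 6694 without such a run it rose in 377 (5.63%), with a median of 0.05. The lists of ribosomal proteins and other TOP mRNAs do not account for all of this: outside them, TE rose in 126 of 509 genes with the run (24.8%, median 0.29) and in 361 of 6677 without it (5.41%, median 0.05). For genes with a single listed start and outside the lists, the rise was called in 79 of 250 with the run (31.6%) and in 276 of 4819 without it (5.73%).

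Read from the genes, the run was present in 38 of 49 ribosomal protein genes with a listed start (77.6%), in 20 of 26 other TOP genes (76.9%), in 126 of 487 other genes with higher TE (25.9%), in 382 of 6634 not called (5.76%) and in 3 of 68 with lower TE (4.41%). Of 20 other genes with TE called at least 4-fold higher and a listed start, 8 (40.0%) had the run. The listed genes without the run at the annotated start rose in TE in 16 of 17 cases, EEF1G and VIM among them. A wider search, for a C with at least 6 pyrimidines after it beginning within 10 bases of the start, found 1418 genes (19.5%), of which 246 (17.3%) rose in TE, against 313 of 5843 (5.36%) without. A match describes the annotated sequence and does not show that the mRNA begins there.

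**Figure D4:**
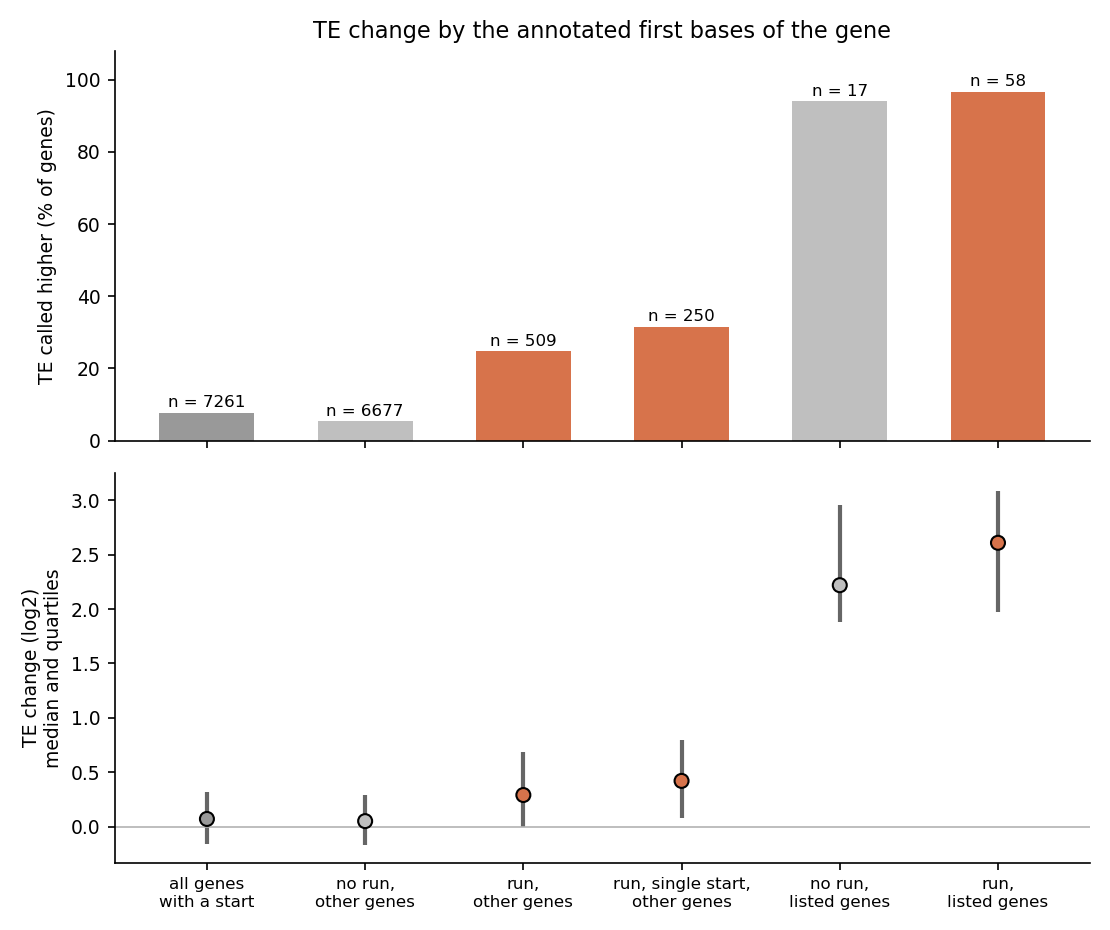
Upper panel: share of genes with TE called higher (y axis, %), by whether a C and at least 4 pyrimidines begin at a listed start, for genes in the ribosomal protein and other TOP lists (listed genes) and outside them (other genes). Lower panel: median (point) and quartiles (line) of the TE change (log2). Outside the lists, 24.8% of genes with the run and 5.41% without it rose.

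The deposited gene length sorted the TE calls only weakly. It is a multiple of 3 in 96.46% of genes, which does not show that it is the whole coding length of a gene. From the shortest to the longest quintile of the deposited length, TE rose in 9.87%, 8.21%, 7.19%, 6.76% and 6.41% of genes, and without the 2 lists of TOP mRNAs, whose products are mostly small, in 6.79%, 7.37%, 6.65%, 6.39% and 6.26%. The medians without the lists ran from 0.04 to 0.08.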

How the data were processed

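RNA-seq and Ribo-seq libraries of RPE-1 cells were deposited by the authors as a table of raw counts per gene and library, aligned with STAR 2.5.4a to GRCh38 and counted with featureCounts 1.5.1, as the submitters' processing notes name them. What annotation release and strand setting they used, and how they treated multi-mapping reads and molecular identifiers, is not given in the sources used here. Both kinds of library were made with a kit for small RNA after removal of ribosomal RNA, per the labels' protocols. Every column matched a sample, and no library was left out. Counts are of reads, so errors cover the spread between libraries, and the labels call the replicates biological.

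The table has 19023 genes, of which 18905 were matched to a symbol. Genes passing filterByExpr by time group in both assays were fitted with edgeR 4.0.16 (robust quasi-likelihood, group means, all 32 libraries, TMM within assay). The TE change is the assay-by-time interaction, 2-sided, with Benjamini-Hochberg adjustment over all genes, and RNA and footprints were also fitted separately over 16 libraries each. Errors of log2 changes are standard errors, those of CPM values or shares of counts are SD (n = 4 per group). CPM values use the scaled library sizes, and TE levels a prior count of 0.5. Data simulated for this comparison held 8623 genes. Of the genes changed 1.5-fold, 2-fold and 4-fold, 20.0% of 55, 71.4% of 70 and 98.6% of 73 were recovered. These were 11, 50 and 72 genes, beside 16 false calls. All genes of an assay were given the same spread, so genes with a wider spread are not covered.

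Genes named were the 15 largest rises and falls called where CPM averaged 10 or more in each assay and more than 3 counts in each group, up to 4 members of each list with the lowest p, a fixed set, and 3 genes for each combination of calls. The members and lists were chosen with earlier results of these data known. Starts and sequences came from RefSeq on GRCh38.p14. Alternatives covered scaling, filters, DESeq2 1.42.0, limma voom (limma 3.58.1), separate fits, fewer libraries, replicate blocks and leaving out each library, and scaling without TOP and mitochondrial genes, chosen after seeing the data.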

Additional observations from a re-analysis of the deposited data

Results flagged for a closer look

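Of 148 groups of 4 libraries (128 from 32 genes, mostly those given library by library, and 20 from the medians of 5 gene lists), 3 had a library far from the other 3 (the gap to the nearest was above the Dixon limit for 4 values as a share of the range), and chance gives such a gap in about 1 in 20 groups. RPS16 footprints at 0 h were at 53.1 CPM in replicate 4, below 63.3 to 64.8 CPM in the others. DNA2 footprints at 0 h were at 7.1 CPM in replicate 1, above 4.74 to 4.89 CPM. RNF7 RNA at 10 h was at 67.6 CPM in replicate 4, below 77.8 to 79.8 CPM. All 3 values stay on the same side of the other time's libraries as their group does.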

How the results depend on the processing

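Of the 120 named genes that were called, 0 reversed direction under any alternative. Of these 120, 87 stayed called under every alternative other than leaving out a library. The counts of 672 higher and 88 lower became 386 and 306 with library totals, 523 and 125 with upper-quartile factors, 740 and 139 with DESeq2, 567 and 41 with limma voom, and 567 and 58 when only the libraries of 0 h and 10 h were fitted. Fitting RNA and footprints apart and combining their errors gave 686 and 96. Leaving out 1 library at a time gave 518 to 657 higher and 66 to 144 lower, the highest without replicate 2 of RNA at 10 h, and 92 of the 120 stayed called in all these fits. A replicate block within each assay gave 927 higher and 176 lower, and a block joining RNA and footprints of the same number gave 479 and 45. With the block within the assay, RNA calls were 4654 against 3929 and footprint calls 8638 against 8597, and 9 mitochondrially encoded mRNAs were called lower in TE. No label says what a shared number marks. Deviations of same-numbered RNA libraries of 0 h and 10 h correlated at 0.025 to 0.673 (mean 0.293), and the own number was the best match in 2 of 4. Those of footprint libraries correlated at -0.071 to 0.263 (mean 0.048), with 1 of 4. The numbers were not taken as pairs in the main fit, and whether they mark a shared handling of RNA libraries was not tested. The cause of these shifts was not tested. In data simulated at these depths and the common spread of each assay, most 1.5-fold changes were not recovered. False calls there were a larger share of all calls than the threshold of 0.05.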
